A study of Mus musculus with 11 samples.

Results

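Levels of mmu-miR-146a-5p, mmu-miR-146b-5p and mmu-miR-155-5p (the prefix for mouse is left out from here on) were compared between sham-operated and ischemic mouse cortex. These 3 mature miRNAs were chosen by name, as miRNAs induced by inflammatory signalling, out of the 1907 miRNA names in the count tables. They and the lists of other miRNAs used below were chosen with earlier results of these data known. The 3 miRNAs were present in every library, and all 3 passed the filter on low counts that 479 names passed. miR-155-5p passed it only through the ischemic group, with 13 to 53 counts per library there against 3 to 9 in sham. Small RNA had been sequenced from male Balb/cOlaHsd mice with a labelled age of 3 months, 3 days after surgery. In 5 mice the middle cerebral artery had been closed permanently (pMCAO), a model of ischemic stroke without reperfusion, and the labels name peri-ischemic cortex as the tissue. In 6 mice the artery was exposed but not closed (sham), and the labels name cortex, while the study's methods name peri-ischemic tissue for both groups. One library was made per mouse. One time point was sequenced, so the course of any change is not part of these data.

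miR-146a and miR-155 are known as miRNAs whose transcription rises when toll-like receptors or cytokine receptors activate NF-kB, a transcription factor of innate immunity. miR-146a and miR-146b then act as a brake, since they repress the adaptor proteins IRAK1 and TRAF6 that carry the receptor signal. miR-155 acts largely the other way, because it represses inhibitors of inflammation such as SOCS1 and the phosphatase SHIP1. In the brain, microglia and invading leukocytes are known sources of miR-155, while miR-146a is also made by astrocytes and endothelial cells.

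The mature sequences are shown because the seed, bases 2 to 8 from the 5′ end and printed here in capitals, sets which messenger RNAs a miRNA can pair with. They come from RefSeq on GRCm38.p6.

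miR-146a-5p: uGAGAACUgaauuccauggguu
miR-146b-5p: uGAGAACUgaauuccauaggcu
miR-155-5p: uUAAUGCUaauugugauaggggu

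miR-146a-5p and miR-146b-5p share the seed GAGAACU, and no other mature mouse miRNA in the RefSeq table has it. They are identical at 20 of 22 positions. Counted from the 5′ end of miR-146a-5p, they differ by G18A and U21C, with the base of miR-146b-5p given last. The reads kept by the study were 20 bases or longer, so a full-length read starting at the first base covers at least the first of these positions. How reads that match both were counted is not given in the sources used here, so the split between miR-146a-5p and miR-146b-5p is less certain than their sum. The first 20 bases of each of the 3 miRNAs were found in 1 annotated mouse hairpin only. The seed of miR-155-5p, UAAUGCU, was found in no other mature miRNA of the table.

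The hairpins are shown because their opposite arms were counted too. The 5p arm and then the 3p arm of each hairpin are in capitals.

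Mir146: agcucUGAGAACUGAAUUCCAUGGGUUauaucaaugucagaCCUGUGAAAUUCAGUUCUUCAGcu
Mir146b: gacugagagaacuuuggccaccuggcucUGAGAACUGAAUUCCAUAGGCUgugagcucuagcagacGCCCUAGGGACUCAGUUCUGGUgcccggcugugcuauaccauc
Mir155: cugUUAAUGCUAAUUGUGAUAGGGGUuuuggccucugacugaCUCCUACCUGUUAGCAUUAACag

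The hairpin Mir146 (miR-146a) lies on the minus strand at chr11:43374397-43374461 of GRCm38, and GENCODE vM21 places it in no other gene. Its nearest annotated gene is the long intergenic non-coding RNA Gm12148, 11021 bp away. Mir146b lies on the plus strand at chr19:46342762-46342870, in an intron of the protein-coding gene Mfsd13a on the same strand. Mir155 lies on the plus strand at chr16:84714140-84714204, in exon 2 of its host transcript Mir155hg. The 3 miRNAs therefore come from separate loci on separate chromosomes.

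The libraries held between 744877 and 2319810 counts on miRNA names, with the sham libraries all deeper than the deepest pMCAO library. Levels are given as CPM, the counts scaled to a common library size, after TMM normalization, which scales each library so that most miRNAs keep the same level. In this unit 3 counts, taken here as the detection floor, correspond to 1.5 to 3.55 CPM depending on the library. No correction for length was made between miRNAs, and these 3 have 22 or 23 bases. The neuronal miR-124-3p, a marker of the labelled tissue, stood at 209811 ± 22259 CPM in the sham group (n = 6, SD) and 168631 ± 12682 CPM in the pMCAO group (n = 5, SD). Sham replicate 1 stood apart by the erythrocyte miRNA miR-451a, at 5115 CPM, whereas the other sham libraries reached 252 CPM at most. The pMCAO libraries held 620 to 4465 CPM of it, so leaving out sham replicate 1 does not make the groups more alike in miR-451a. Values without that library are given beside the levels, the differences between the 3 miRNAs, the family sums and the arm shares.

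miR-155-5p was rare in sham cortex and rose in every pMCAO library. The sham libraries held 3, 9, 6, 6, 3 and 7 counts of it in replicates 1 to 6. These counts correspond to 1.90, 4.49, 4.10, 3.70, 2.19 and 4.15 CPM. All sham values thus lay close to the floor, and their variance was 0.554 times what counting alone would give. The pMCAO libraries held 16, 53, 24, 13 and 27 counts in replicates 1 to 5. These correspond to 18.0, 62.7, 19.2, 9.86 and 17.5 CPM. The groups did not overlap, pMCAO replicate 2 was far above the others and pMCAO replicate 4 was the lowest. For that lowest library the exact 95% Poisson interval, which covers counting error only, ran from 5.25 to 16.9 CPM.

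The mean of miR-155-5p was 3.42 ± 1.10 CPM in the sham group (n = 6, SD) and 25.4 ± 21.1 CPM in the pMCAO group (n = 5, SD), a ratio of 7.44 between the means and of 4.62 between the medians. The log2 fold change was 2.79 (standard error 0.46, 95% interval 1.80 to 3.78, adjusted p = 0.00212 edgeR quasi-likelihood test, Benjamini-Hochberg over the 479 miRNAs tested). It ranked 5 of 479 by log2 fold change and 7 by p-value. Both ranks are among names that passed the filter, which miR-155-5p did only through the pMCAO libraries. They and the lack of overlap therefore lend its rise no added support. The study displayed differentially expressed miRNAs from these same libraries, so any call of miR-155-5p there is not independent evidence. Between pMCAO libraries the variance was 18.1 times the counting variance. Without pMCAO replicate 2 the log2 fold change was 2.22 (edgeR adjusted p = 0.000778), and without sham replicate 1 it was 2.68 (edgeR adjusted p = 0.00356).

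miR-146a-5p was also higher in pMCAO tissue, with a wide spread in both groups. Its sham levels were 92.5, 78.8, 77.9, 65.3, 39.3 and 40.9 CPM in replicates 1 to 6, from 54 to 158 counts. Its pMCAO levels were 119, 223, 148, 66.0 and 128 CPM in replicates 1 to 5, from 87 to 197 counts. Of the 5 pMCAO libraries, 4 lay above every sham library, and replicate 4 lay inside the sham range. As with miR-155-5p, pMCAO replicate 2 was the highest and replicate 4 the lowest.

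The mean of miR-146a-5p was 65.8 ± 21.7 CPM in the sham group (n = 6, SD) and 137 ± 57.1 CPM in the pMCAO group (n = 5, SD). The log2 fold change was 1.05 (standard error 0.29, 95% interval 0.42 to 1.67, adjusted p = 0.0434 from the same edgeR test), which placed it 31 by p-value. Spread between libraries exceeded counting error in both groups, with a variance of 11.1 times the counting variance in sham and 25.4 times in pMCAO. The call was close to the threshold. Leaving out 1 library at a time ended it in 9 of 11 cases, and it was kept without sham replicate 1 (1.18, edgeR adjusted p = 0.0293) and without pMCAO replicate 4 (1.23, edgeR adjusted p = 0.0123). The smallest log2 fold change, 0.84 with an edgeR adjusted p of 0.139, came without pMCAO replicate 2. DESeq2, the tool the study used, gave 1.05 with an adjusted p of 0.00418 on all 11 libraries.

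miR-146b-5p, the most abundant of the 3, differed least between the groups and did not pass the test. Its sham levels were 196, 198, 182, 178, 170 and 177 CPM in replicates 1 to 6, from 234 to 397 counts. Its pMCAO levels were 190, 252, 241, 247 and 219 CPM in replicates 1 to 5, from 169 to 339 counts. Again 4 of 5 pMCAO libraries lay above every sham library, but here replicate 1 was the lowest and replicate 4 was among the highest.

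The mean of miR-146b-5p was 184 ± 11.01 CPM in the sham group (n = 6, SD) and 230 ± 25.5 CPM in the pMCAO group (n = 5, SD). The log2 fold change was 0.32 (standard error 0.10, 95% interval 0.10 to 0.55, edgeR adjusted p = 0.0849). The sham libraries were alike to within counting error, with a variance of 1.09 times the counting variance, against 2.75 times in pMCAO. An exact permutation test of this single value over all arrangements of the libraries, two-sided and without adjustment for other miRNAs, gave p = 0.00866. The same exact test gave p = 0.0195 for miR-146a-5p and p = 0.00216, the lowest value it can reach, for miR-155-5p. That lowest value restates the lack of overlap, so for miR-155-5p it lends no added support. With library totals as the only scaling, under which the median of all miRNAs moved to a log2 fold change of 0.18, miR-146b-5p stood at 0.50 and passed (edgeR adjusted p = 0.0180). Without sham replicate 1 it was 0.36 (edgeR adjusted p = 0.0819).

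**Figure D1:**
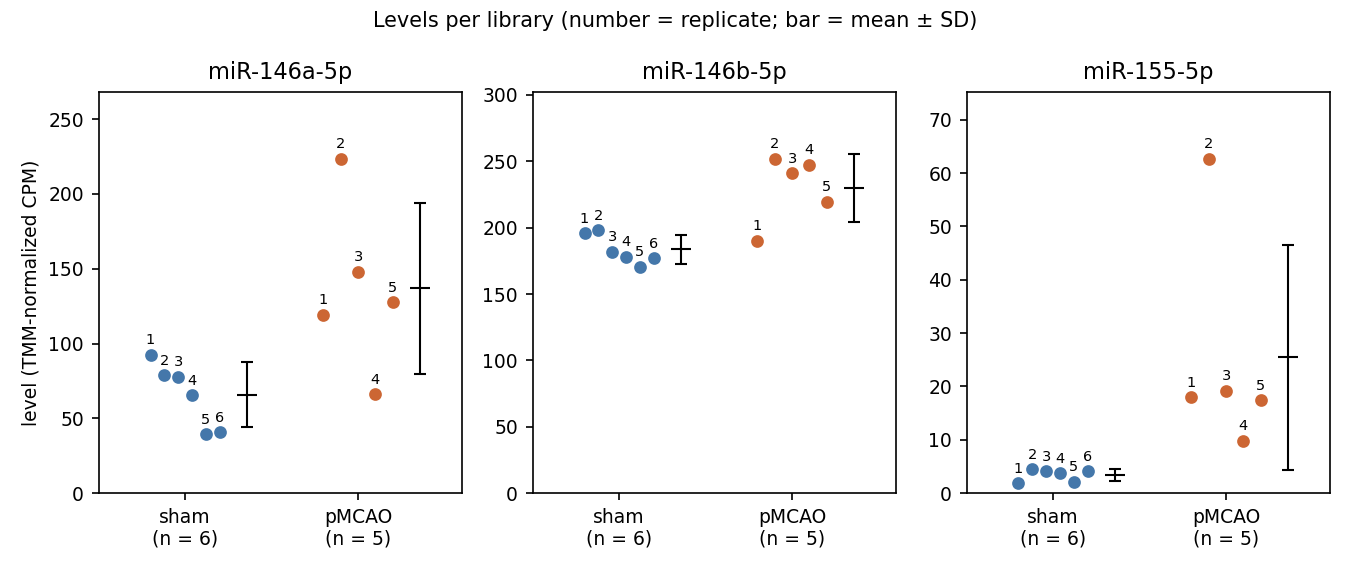
Level of each miRNA in TMM-normalized CPM (vertical axis, starting at 0, with a separate scale per panel) in 6 sham and 5 pMCAO libraries. Each point is a library with its replicate number, and the black bar gives the mean ± SD. The groups are separate for miR-155-5p, while pMCAO replicate 4 of miR-146a-5p (66.0 CPM) and pMCAO replicate 1 of miR-146b-5p (190 CPM) lie inside the sham range.

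Of the 3 miRNAs, 2 passed the test and 1 did not, where 34 of all 479 tested (7.10%) passed in either direction and 21 (4.38%) as higher in pMCAO. For 1 of the 3 the groups did not overlap, against 7.52% of all tested miRNAs in either direction and 4.18% with pMCAO higher. That one was miR-155-5p, which passed the filter only through the pMCAO libraries. Since the 3 were chosen with earlier results of these data known, these shares are a description only. All 5 pMCAO libraries were above the sham mean for each of the 3, in part by less than counting error. miR-146a-5p in pMCAO replicate 4 was at 66.0 CPM against a sham mean of 65.8 CPM. miR-146b-5p in pMCAO replicate 1 was at 190 CPM against 184 CPM. How many of all tested miRNAs share this pattern was not counted. Whether more cells that make these miRNAs or more RNA per cell lies behind a higher level cannot be told apart in bulk tissue.

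The 3 miRNAs differed in how much they changed, which was tested on their differences within each library, on the log2(CPM + 1) scale. The difference miR-155-5p minus miR-146a-5p was -3.89 ± 0.64 in the sham group (n = 6, SD) and -2.56 ± 0.43 in the pMCAO group (n = 5, SD). It was therefore 1.33 higher in pMCAO, without overlap between the groups (exact permutation test, two-sided, p = 0.00433, adjusted over the 3 pairs p = 0.00649). The difference miR-155-5p minus miR-146b-5p rose from -5.42 ± 0.40 to -3.40 ± 0.91, by 2.03, again without overlap (exact permutation test, two-sided, p = 0.00216, adjusted p = 0.00649). On this scale the rise of miR-155-5p in these libraries was thus larger than that of both miR-146 miRNAs. As miR-155-5p passed the filter only through the pMCAO libraries, the lack of overlap and these p-values lend the larger rise no added support. Because its sham level is near the added constant of 1, the size of this excess depends on that constant. With 5 in its place the excess over miR-146a-5p was 0.69 and that over miR-146b-5p 1.34, and both remained past the threshold. Without sham replicate 1 they were 1.11 and 1.89 (exact permutation tests, two-sided, p = 0.00794 for each, not adjusted).

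Between the 2 miRNAs with the same seed, the test did not separate the changes. The difference miR-146b-5p minus miR-146a-5p was 1.54 ± 0.44 in the sham group (n = 6, SD) and 0.84 ± 0.63 in the pMCAO group (n = 5, SD). The groups differed by -0.69 (exact permutation test, two-sided, p = 0.0714, also after adjustment over the 3 pairs) and overlapped through pMCAO replicate 4, at 1.89. Without that library the difference between the groups was -0.96 (exact permutation test, p = 0.00952), and without pMCAO replicate 2 it was the smallest, at -0.53. Without sham replicate 1 it was -0.79 (exact permutation test, p = 0.0635).

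**Figure D2:**
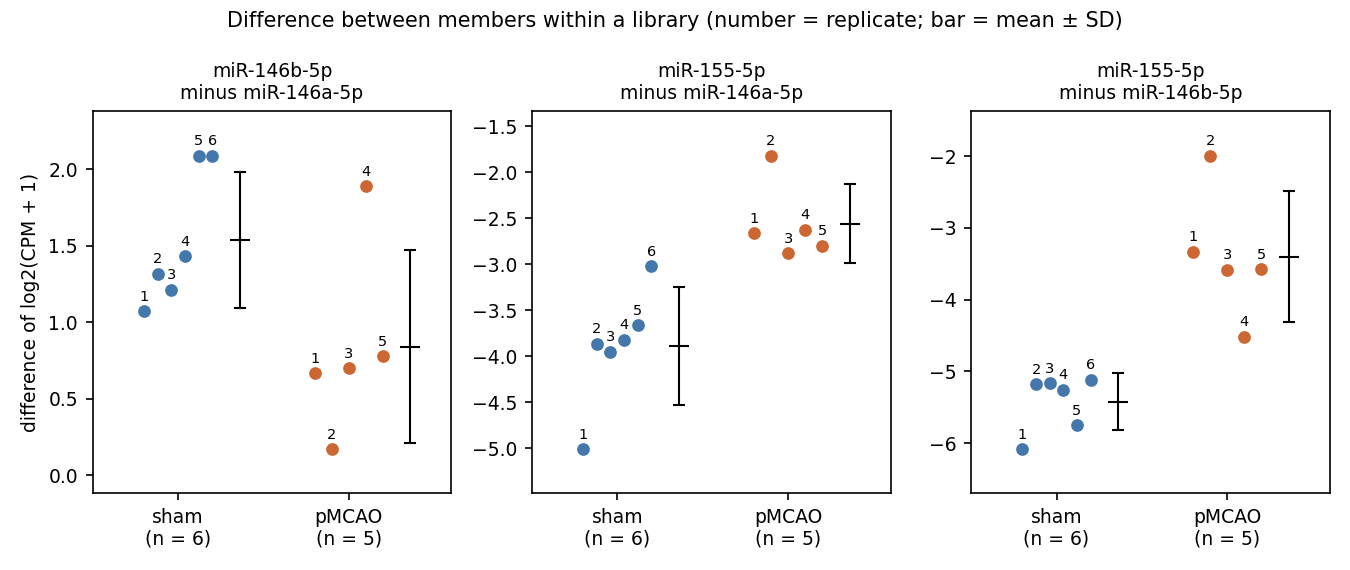
Difference between 2 of the miRNAs within the same library, in log2(CPM + 1) (vertical axis, separate scale per panel), in 6 sham and 5 pMCAO libraries, with replicate numbers and the mean ± SD. Both differences that hold miR-155-5p are higher in every pMCAO library than in every sham library, whereas miR-146b-5p minus miR-146a-5p overlaps.

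Taken as a seed family, miR-146a-5p and miR-146b-5p together made up 249 ± 31.5 CPM in the sham group (n = 6, SD) and 367 ± 68.6 CPM in the pMCAO group (n = 5, SD). The sham sums ran from 210 to 288 CPM, the highest being sham replicate 1 and the next 277 CPM, and the pMCAO sums from 309 to 475 CPM. miR-146b-5p was the larger part in all 11 libraries. miR-146a-5p made up 18.8% to 32.1% of the family counts in sham libraries, the highest again in sham replicate 1 and the next at 30%. In pMCAO libraries it made up 38.5%, 47.0%, 38.1%, 21.1% and 36.8% in replicates 1 to 5. The 95% Wilson interval of replicate 4, 17.4% to 25.3%, lay below those of the other pMCAO libraries, of which the lowest bound was 32.8%. Replicate 4 was therefore a library with a raised miR-146b-5p level and a miR-146a-5p level in the sham range.

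The opposite arms were close to absent. miR-146a-3p had 0 to 4 counts per library and 11 in all, against 1411 of miR-146a-5p. miR-146b-3p had 0 to 7 counts and 18 in all, against 3142 of miR-146b-5p. miR-155-3p had 0 counts in all 11 libraries, against 167 of miR-155-5p, which allows a 3p share of up to 1.80% of the counts of this hairpin. None of these arms passed the filter. The 5p share of the miR-146a hairpin was 99.2 ± 1.39% in the sham group (n = 6, SD) and 99.2 ± 0.467% in the pMCAO group (n = 5, SD), and that of miR-146b 99.6 ± 0.448% and 98.9 ± 1.65%. No difference in arm use was detectable at these counts (exact permutation tests, two-sided, p = 1.00 and p = 0.435). Without sham replicate 1 the pMCAO group was higher by 0.139 percentage points for miR-146a and differed by -0.775 for miR-146b (exact permutation tests, p = 0.873 and p = 0.563).

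Other miRNAs known to respond to or act on toll-like receptor and NF-kB signalling were examined as a list. Of the 16 listed, 14 were tested, 2 passed as higher, 1 as lower and 11 did not pass. Of all 479 tested, 4.38% passed as higher, 2.71% as lower and 7.10% in either direction. This list too was chosen with earlier results of these data known, so its counts are a description only. The median log2 fold change of the list, 0.00211, was close to that of all 479 miRNAs, 0.00147. The 2 higher ones were miR-21a-5p, which is induced by NF-kB and STAT3 in many tissues, at 2.12 (standard error 0.25), and the myeloid miR-223-3p, at 2.31 (standard error 0.43), with edgeR adjusted p = 0.000395 and 0.00544. The lower one was miR-132-3p, which is induced by CREB in neurons as well as by toll-like receptors in monocytes. Its level was 8599 ± 1241 CPM in the sham group (n = 6, SD) and 6401 ± 579 CPM in the pMCAO group (n = 5, SD), a log2 fold change of -0.43 (edgeR adjusted p = 0.0412).

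Among those that did not pass were miR-187-3p, induced by interleukin-10 in monocytes, at 1.10 (edgeR adjusted p = 0.0921), and miR-199a-3p, at 1.06 (edgeR adjusted p = 0.0547). miR-9-5p, which is abundant in neural cells and induced by NF-kB in monocytes, had a log2 fold change of -0.10 (95% interval -0.33 to 0.13). miR-125b-5p, which targets tumour necrosis factor messenger RNA, was at -0.31 (edgeR adjusted p = 0.148). miR-147-3p, also induced by toll-like receptors in macrophages, had at most 7 counts in any library and was not tested.

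**Figure D3:**
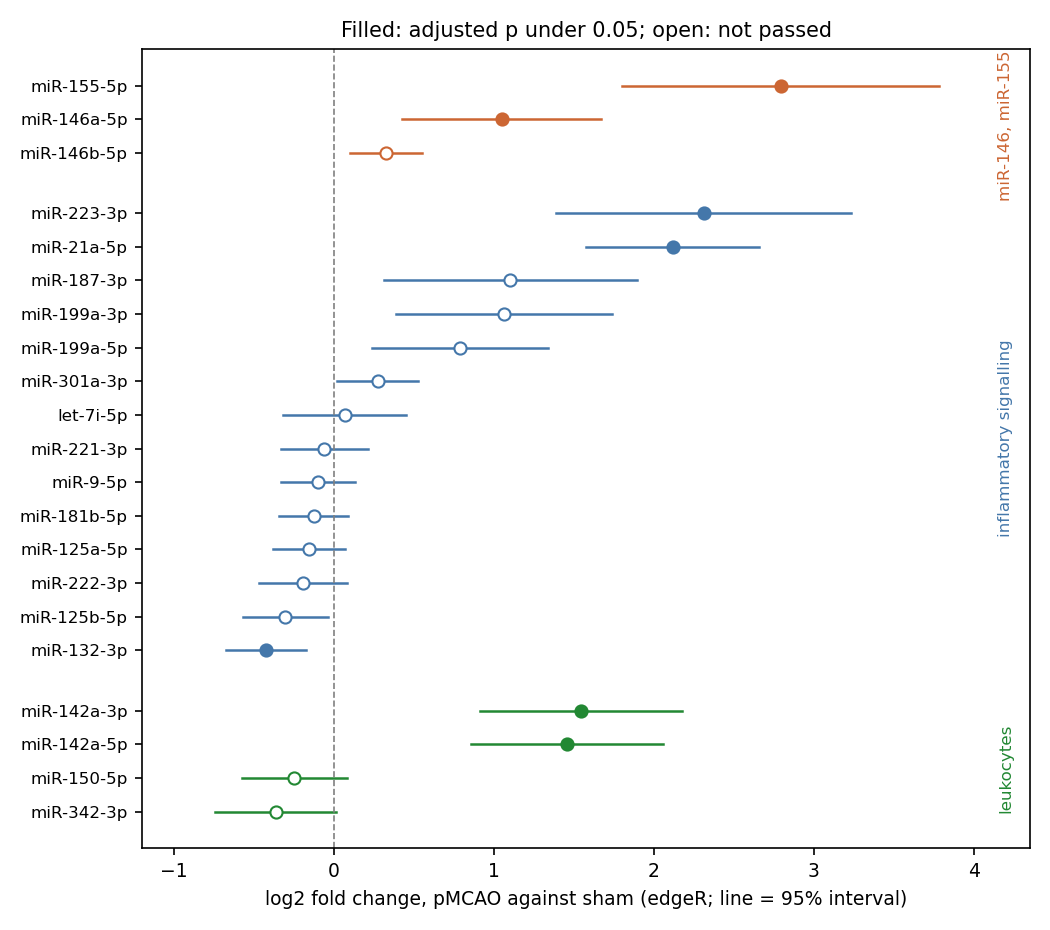
Log2 fold change of pMCAO against sham (horizontal axis) with its 95% interval from edgeR for the 3 miRNAs, the tested miRNAs of the inflammatory signalling list and the tested leukocyte miRNAs (miR-223-3p is drawn once). Filled points passed an adjusted p of 0.05 and open points did not. miR-155-5p has the highest value of those drawn, and most of the inflammatory list lies near 0.

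Some leukocyte miRNAs were higher in the same libraries. Of 8 listed, 5 were tested, and 3 passed as higher in pMCAO, where 4.38% of all tested miRNAs did so. The list was chosen with earlier results of these data known, so this count is a description only. The 3 do not show that leukocyte miRNAs as a set were higher. Those that passed were miR-223-3p and both arms of miR-142a, with log2 fold changes of 1.55 for miR-142a-3p and 1.46 for miR-142a-5p (edgeR adjusted p = 0.00569 for each). miR-150-5p, which is typical of lymphocytes, and miR-342-3p were at -0.25 and -0.37 and did not pass. miR-511-5p was at 0 in all libraries, and miR-223-5p and miR-511-3p were too low to test. The summed level of this list ran from 5521 to 6728 CPM in sham and from 4499 to 8978 CPM in pMCAO libraries. pMCAO replicate 2, the highest for miR-155-5p and miR-146a-5p, was also the highest for miR-223-3p (2754 CPM), miR-142a-3p (568 CPM) and miR-142a-5p (378 CPM). pMCAO replicate 4, the lowest for both, was not the lowest for any of these, since replicate 1 was lower. The part of leukocytes in the changes was not tested.

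Beside the mean log2(CPM + 1) of miR-223-3p and both arms of miR-142a in the same library, the 3 miRNAs are given as a description only, because these markers were picked with their rise in these libraries known, and 2 leukocyte miRNAs that did not pass were left out of that mean. miR-155-5p minus this mean was -4.85 ± 0.75 in the sham group (n = 6, SD) and -4.20 ± 0.55 in the pMCAO group (n = 5, SD). miR-146a-5p minus this mean was -0.96 ± 0.43 and -1.64 ± 0.49, and miR-146b-5p minus this mean was 0.57 ± 0.45 and -0.80 ± 0.64.

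Markers of other cell types were examined in the same way. Of 7 neuronal miRNAs, 1 was lower (miR-132-3p) and 6 did not pass, with miR-124-3p at -0.32 (edgeR adjusted p = 0.0523). Of 3 oligodendrocyte miRNAs, miR-338-3p was lower at -0.54 (edgeR adjusted p = 0.0453) and 2 did not pass. Among all 479 tested miRNAs, 2.71% passed as lower and 4.38% as higher. None of the 4 vascular miRNAs and neither of the 2 erythrocyte miRNAs tested passed, the latter with summed list levels from 49.2 to 5375 CPM in sham and from 640 to 4735 CPM in pMCAO libraries. The sham range of the erythrocyte miRNAs was wide through sham replicate 1. Without it, miR-451a ran from 42.7 to 252 CPM in sham and from 620 to 4465 CPM in pMCAO libraries, and miR-144-3p from 2.19 to 14.5 CPM and from 15.9 to 234 CPM, both without overlap. That library was set apart by its miR-451a level, so this separation is a description only. With all 11 libraries both overlapped (edgeR adjusted p = 0.672 for miR-451a and 0.537 for miR-144-3p). The neuronal list summed to 309788 to 390834 CPM in sham and 262896 to 313836 CPM in pMCAO libraries. The oligodendrocyte list summed to 4287 to 5244 and 2530 to 4955 CPM, and the vascular list to 17207 to 24424 and 16454 to 22097 CPM. Their part in the levels of the 3 miRNAs was not tested.

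How the 3 miRNAs varied among mice of the same group was described by the correlation of log2(CPM + 1) after the group mean was subtracted, over the 11 libraries. These points share library size and normalization, and the correlations are descriptions only. miR-146a-5p and miR-155-5p had r = 0.62, miR-146a-5p and miR-146b-5p r = 0.35, and miR-146b-5p and miR-155-5p r = 0.21. The miRNAs most like miR-146a-5p were miR-199a-3p (r = 0.84), miR-142a-5p (r = 0.84) and miR-299a-3p (r = 0.81). Most like miR-155-5p were miR-322-5p (r = 0.86), miR-378a-3p (r = 0.83) and miR-130b-3p (r = 0.79). Most like miR-146b-5p were miR-219a-5p (r = 0.89), miR-21a-3p (r = 0.86) and miR-708-3p (r = 0.83). Of these 9, miR-142a-5p and miR-21a-3p passed the test between the groups (edgeR), and the other 7 did not.

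**Figure D4:**
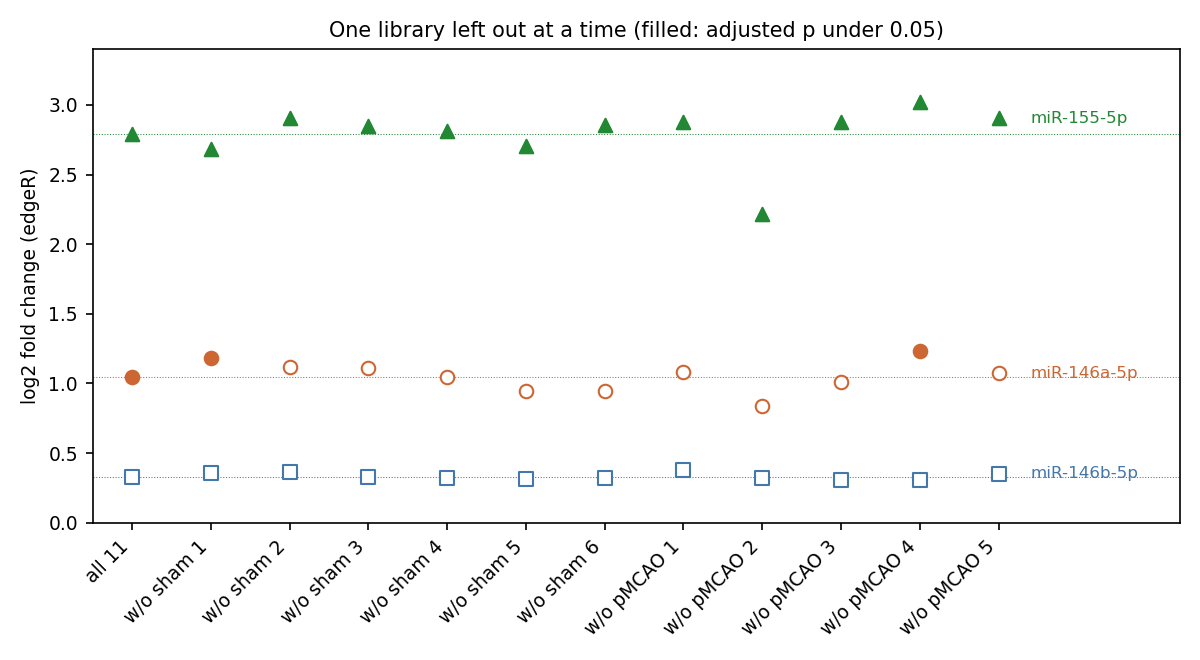
Log2 fold change of pMCAO against sham from edgeR (vertical axis) on all 11 libraries and with each library left out in turn (horizontal axis). Filled points had an adjusted p under 0.05, and each dotted line marks the value on all libraries. miR-155-5p passed in all 11 reduced fits (2.22 to 3.02), miR-146a-5p in 2 (0.84 to 1.23 over all) and miR-146b-5p in none (0.30 to 0.38).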

How the data were processed

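For each library the authors deposited raw counts per mature miRNA name. Per the study's methods they removed adapters with the Torrent Suite, retained lengths of 20 to 30 bp, aligned to mm10 with Bowtie and counted on miRBase annotation with HTSeq. Settings for reads that match several miRNAs are not given in the sources used here. Groups came from the sample labels. Counts were filtered with filterByExpr (minimum count 10, minimum total 15), normalized by TMM and tested in R 4.3.3 with edgeR 4.0.16 (glmQLFit, glmQLFTest, no covariates) at a Benjamini-Hochberg adjusted p of 0.05. DESeq2 1.42.0 was an alternative. For single values, exact permutation tests were run on log2(CPM + 1). Each standard error was derived from the F statistic of its test. The scripts were tested on simulated data. All 25 within-group pairs of libraries differed by more than sampling noise (chi-square per degree of freedom at least 20.4). Sequences for all 6 arms were matched by name in a RefSeq table of GRCm38.p6, and gene context was read from GENCODE vM21. The 3 miRNAs and all lists were chosen with earlier results of these data known. Other miRNAs were named as entries of these lists, or as the 3 with the highest group-centred correlation. Tests of the 3 miRNAs against 3 leukocyte miRNAs are not reported, since those were picked with their rise known. Reads carry no molecular identifiers, so intervals and floors cover counting error only. Library batches are not given in the sources used here.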

Additional observations from a re-analysis of the deposited data

Results flagged for a closer look

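In 4 of 24 groups of values checked, 1 library stood far from the others by Dixon's test, where chance gives about 1.2. In pMCAO replicate 2, miR-155-5p minus miR-146a-5p was -1.82 on the log2(CPM + 1) scale, against -2.62 or less in the other pMCAO libraries. The 5p share of the miR-146a hairpin was 100% in pMCAO replicate 3, against at most 99.1% in the others, a gap of 1 or 2 counts of the 3p arm. The 5p share of the miR-146b hairpin was 96.0% in pMCAO replicate 1, against at least 99.1% in the others, where 7 counts of miR-146b-3p were found. Sham replicate 2 had a log2 library total of 21.1, and the next sham library had 20.7. Without it the log2 fold changes of miR-146a-5p, miR-146b-5p and miR-155-5p were 1.12, 0.36 and 2.91 (edgeR adjusted p = 0.0785, 0.1001 and 0.00527).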

How the results depend on the processing

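miR-155-5p kept its direction and its call in every fit in which it was tested, with log2 fold changes from 2.22 to 3.02. Requiring 10 counts or more per library removed it. miR-146a-5p kept its direction in all fits, from 0.84 to 1.23 with 1 library left out, but lost its call in 9 of those 11 fits and with the replicate block (0.90, edgeR adjusted p = 0.0788). At an adjusted p of 0.05, miR-146b-5p passed only with total counts alone (0.50). The cause was not tested. The count of 34 calls (21 higher, 13 lower) became 22 (19 and 3) with the replicate block, 18 (15 and 3) under that requirement, 14 at an adjusted p under 0.01, 57 under 0.1, and 16 to 36 with 1 library left out. It was 16 without sham replicate 3, 19 without sham replicate 2 or 4, 20 without sham replicate 6, 17 without pMCAO replicate 2 and 21 without pMCAO replicate 5. The split was 43 and 1 with total counts alone, 23 and 4 with upper quartile scaling, 21 and 4 with TMMwsp and 25 and 8 without a filter. The replicate numbers were not taken to pair the libraries: deviations of same-numbered libraries from the group means correlated between -0.0768 and 0.228, 3 of 5 pairs were over 0.1, and 1 of 5 pMCAO libraries correlated best with its own number. With 1 library left out, miR-146b-5p minus miR-146a-5p ranged from -0.96 to -0.53, miR-146a-5p minus the leukocyte markers from -0.88 to -0.52, and the 5p share of miR-146a from -0.539 to 0.139 percentage points. The second of these, a description, was -0.69 with a constant of 5. Sham counts of 3 to 9 limit the precision of miR-155-5p.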
